A study of Mus musculus with 12 samples.

Results

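The protein-coding genes of the cytosolic ribosome were followed in RNA sequencing of the mouse left ventricle. Members were all GENCODE M21 protein-coding genes whose symbol was Rpl or Rps followed by a number, together with Rplp0, Rplp1, Rplp2 and Rpsa. Of 102 matching symbols, 10 Rps6k kinase genes and 6 symbols ending in -ps were left out, which left 86 members, 85 of them among the 26921 genes of the deposited counts table. These comprised 46 large subunit proteins, 31 small subunit proteins, 8 paralogues and Rps19bp1, a binding partner of Rps19 that entered by its symbol and is not a ribosomal protein. Rpl10l was not in the counts table, Rpl24 and Rpl39l (mean 0.137 in the WT and 0.0936 in the cmGch1 KO libraries, in cpm, the count relative to library size after scaling by edgeR's TMM factors) fell under the filter of over 3 cpm in at least 6 libraries, and 83 members were tested among 11225 genes.

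The study asked how loss of Gch1 in cardiomyocytes changes gene expression in the heart. Gch1 encodes GTP cyclohydrolase 1, the rate-limiting enzyme of tetrahydrobiopterin synthesis. All 12 mice were 16 weeks old and were Gch1 flox/flox. The 6 WT mice carried no Cre, whereas the 6 cmGch1 KO mice, their littermates, were also heterozygous for a Cre transgene under the α-myosin heavy chain promoter, which is active in cardiomyocytes. Each library came from whole left ventricular tissue, so other cell types contributed RNA, and a lower level in such a sample can come from fewer cells of a type or from less RNA per cell, which cannot be told apart. A group with Cre and without the floxed allele was not analysed here, so effects of Cre itself and of Gch1 loss cannot be told apart.

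A ribosome joins a large and a small subunit, each built of ribosomal RNA and of proteins that are mostly present once per particle, so cells make these proteins in matched amounts. Their mRNAs are short, abundant and usually begin with a cytosine and a run of pyrimidines, the 5′ terminal oligopyrimidine (TOP) motif, through which mTOR signalling controls their translation. In striated muscle the paralogue Rpl3l partly takes the place of Rpl3, a protein near the peptidyl transferase centre.

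To show this motif in the members, RefSeq promoter windows on GRCm38.p6 were read for 66 members, which had 78 windows. Each line holds 30 bases before and 20 bases from the annotated start, with the run of pyrimidines that begins with C at the start in capitals. Rplp2 encodes a protein of the P-stalk, the arm that recruits translation factors, and lay at chr7:141447621-141447670 on the plus strand. Rpl38, a large subunit protein, lay at chr11:114668550-114668599 on the plus strand. Rps6, the small subunit protein that S6 kinases phosphorylate, lay at chr4:86857348-86857397 on the minus strand. Rps27, a small subunit protein with a coding copy elsewhere in the genome, lay at chr3:90213629-90213678 on the minus strand. Rpl3l, shown because it is the muscle paralogue, lay at chr17:24727796-24727845 on the plus strand and had no such run at its start. The windows of Rplp2, Rpl38, Rps6 and Rps27 are among the 14 of 78 member windows with a C and at least 4 further pyrimidines there. Most member windows, like that of Rpl3l, lack such a run at the annotated start.
Rplp2: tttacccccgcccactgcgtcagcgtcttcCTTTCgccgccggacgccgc
Rpl38: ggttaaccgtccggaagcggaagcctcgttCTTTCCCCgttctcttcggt
Rps6: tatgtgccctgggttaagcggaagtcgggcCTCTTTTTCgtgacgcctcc
Rps27: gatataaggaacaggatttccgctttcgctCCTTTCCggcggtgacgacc
Rpl3l: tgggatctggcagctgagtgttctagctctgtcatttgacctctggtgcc

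A C followed by at least 4 further pyrimidines stood at the annotated start in 17.9% of the 78 member windows, against 2.51% of all 32851 windows of the same length. Between 10 bases before and 16 after that start, a C followed by at least 5 further pyrimidines was found in 46.2% of member windows. It was found in 19.2% of all windows and in 19.5% of windows of tested genes that were no member. Whether transcription begins at the annotated base was not tested. Within whole windows of 300 bases, on either strand, CTTTCC was found in 51.3% of member windows and in 26.6% of all windows. The ETS core CCGGAAG, the site letters of a family of activators, was found in 34.6% of member windows, in 8.86% of all windows and in 17.6% of windows of tested genes that were no member. In windows of tested genes that were no member, the run of pyrimidines at the start was found in 2.28% and CTTTCC in 26.3%. The YY1 core AAGATGG was found in 15.4% of member windows, in 6.34% of all windows and in 7.1% of those of tested non-members. The E-box CACGTG was found in 10.3%, 7.15% and 10%, so members were close to the tested non-members. The TATA box TATAAA was found in 8.97%, 13.6% and 7.0%, so members lay below all windows and above those of tested non-members. Letters in a window do not show that a factor binds there.

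Depth ranged from 19921398 to 37917806 counts per library. Gch1 was lower in every cmGch1 KO library (3.94 to 6.35 cpm) than in any WT library (9.32 to 12.2 cpm), with a log2 fold change of -0.96 and a false discovery rate (FDR, the adjusted p) of 6.88e-04 by edgeR. The libraries cmGch1 KO replicates 2 and 3 stood apart, with 87.1 and 99.6 cpm of Xist, against at most 0.235 cpm in the other 10, no count of 4 Y-linked genes, and the lowest mitochondrial shares, 14.9% and 16.1%. Results are therefore also given without these libraries. Cardiomyocyte markers (6 genes) summed to 49738 to 53384 cpm in WT and to 43950 to 50992 cpm in cmGch1 KO, and none of the 6 passed the test. Macrophage markers (6 genes) summed to 115 to 134 cpm in WT and to 137 to 154 cpm in cmGch1 KO, without overlap, 5 of 6 being higher at an unadjusted p under 0.05 and 0 at an FDR under 0.05. Atrial markers (5 genes, 4 tested) summed to 74.7 to 549.6 cpm in WT and to 247 to 746 cpm in cmGch1 KO, and 1 of them, Nppa, a natriuretic peptide that stressed ventricles also make, was called higher (log2 fold change 1.53, FDR 0.024 by edgeR). Pericyte and smooth muscle markers (6 genes) summed to 1110 to 1256 cpm and to 1174 to 1247 cpm. Of these 6, 1, Acta2, smooth muscle actin, was called higher without overlap (0.66, FDR 0.00672 by edgeR). The other 5 had log2 fold changes below 0, and the median of the 6 was -0.07. All 5 erythroid markers were below 0 (median -0.39), none passed the test, and their sums, 393 to 1153 cpm and 431 to 926 cpm, overlapped. The part of these markers in the results below was not tested. Marker genes of lymphocytes and adipocytes were too low to be tested.

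Together, the 85 counted members held between 1.18% and 2.0% of all counts, and 48 of them were among the 1000 genes of highest mean cpm. Their summed cpm in WT replicates 1 to 6 was 19286, 12709, 17321, 20590, 12766 and 12941. In cmGch1 KO replicates 1 to 6 it was 20737, 17118, 16635, 11751, 12913 and 12951. The highest library was a cmGch1 KO and the lowest was also a cmGch1 KO, so the genotypes overlapped over almost the whole range. The WT mean was 15935 ± 3584 cpm and the cmGch1 KO mean 15351 ± 3419 cpm (SD, n = 6 each).

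The members moved together from library to library. On the log2 cpm scale, centred for each gene over the 12 libraries, the mean level of the members in WT replicates 1 to 6 was 0.35, -0.27, 0.12, 0.46, -0.28 and -0.19. In cmGch1 KO replicates 1 to 6 it was 0.47, 0.09, 0.21, -0.53, -0.19 and -0.25. Both genotypes therefore held libraries of high and of low ribosomal protein mRNA, and the pooled SD within a genotype was 0.34. The median Pearson r of a member with the mean of the other members was 0.936 over 12 libraries, and 54 of 83 members had an r over 0.9. Of the 11142 other tested genes, 321 or 2.88% had an r over 0.9 with the member level, and the median r of all 11142 was -0.04. Among them, the 511 protein-coding genes with transcripts of at most 1000 bases had a median r of 0.841. These points share library depth and preparation, so the r values describe the libraries.

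**Figure D1:**
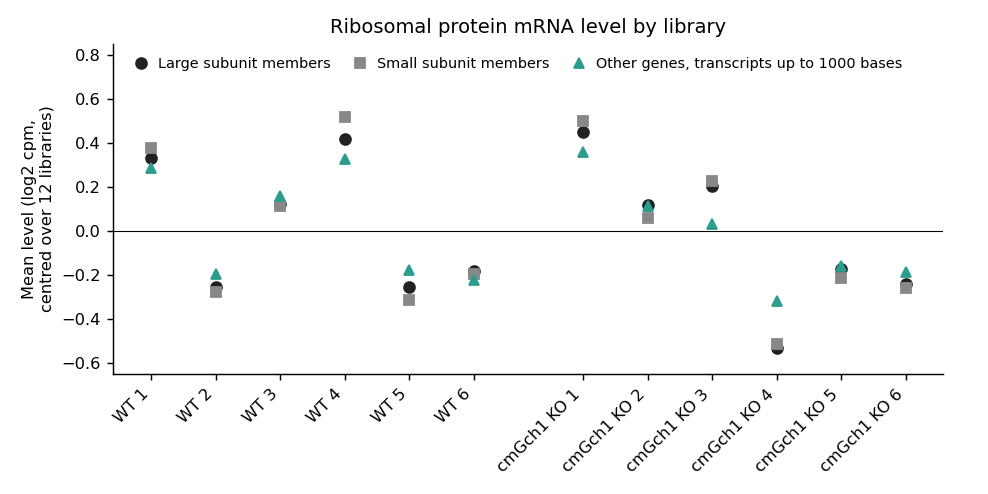
Mean level of the members (log2 cpm, centred over the 12 libraries) for each WT and cmGch1 KO library, for large subunit members (circles), small subunit members (squares) and other genes with transcripts of at most 1000 bases (triangles). The 3 marks lie on the same side of 0 in each library, with the highest in cmGch1 KO 1 and WT 4 and the lowest in cmGch1 KO 4.

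Large and small subunit mRNAs rose and fell together. The summed cpm of large subunit members was 1.11 to 1.22 times that of small subunit members in WT and 1.16 to 1.25 times in cmGch1 KO. The mean ratio was 1.17 ± 0.0440 in WT and 1.19 ± 0.0287 in cmGch1 KO (SD, n = 6 each), and the ranges overlapped. The median ratio of the highest to the lowest library over the 83 tested members was 2.04, from 1.22 for Rpl4, a large subunit protein, to 7.11 for Rpl17.

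Transcript length moved with this pattern. The median principal transcript was 886 bases in the members and 3141 bases in the 10683 other tested protein-coding genes, and 52 members had one of at most 1000 bases, against 4.78% of those other genes. The 511 other genes with transcripts of at most 1000 bases had a mean level whose r with the member level was 0.971 over the 12 libraries. The largest distance between the 2 levels was 0.205 on the log2 scale, in cmGch1 KO replicate 4. Among other genes of at most 600 bases, the library medians spanned 1.10 on the log2 scale, which fell to 0.112 for 3000 to 5000 bases. From 3000 bases upwards the order of the libraries was turned. The r with the member level was -0.92 for 3000 to 5000 bases and -0.85 above 5000 bases, where the span was 0.367. The part of transcript length in the swing of the ribosomal protein mRNAs was not tested.

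**Figure D2:**
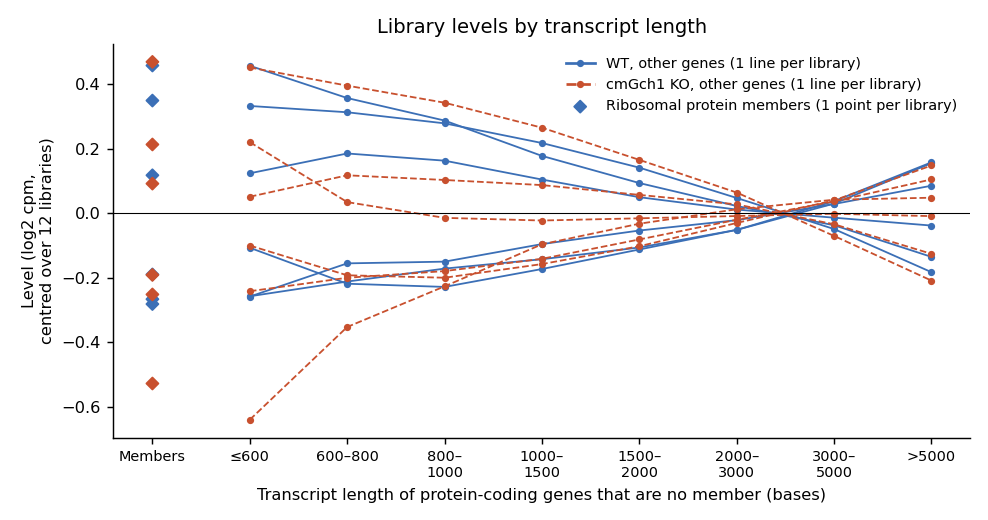
Level (log2 cpm, centred over 12 libraries) of the members (diamonds, mean) and, in bins of transcript length in bases, of other protein-coding genes (lines, median), with 1 point or line per library, blue for WT and red dashed for cmGch1 KO. Lines fan out towards short transcripts, where they spanned 1.10 at 600 bases or less. They cross between the bins of 2000 to 3000 and 3000 to 5000 bases, where they spanned 0.116 and 0.112.

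No member passed the genotype comparison. In edgeR's quasi-likelihood test, adjusted by the Benjamini-Hochberg method, 0 members were higher and 0 lower in cmGch1 KO at an FDR under 0.05, against 0.677% and 0.445% of all 11225 tested genes, or 1.12% in either direction. At an unadjusted p under 0.05, 0 members were higher and 1, Rpl3l, was lower, against 7.01% and 4.51% of all tested genes, or 11.5% in either direction. DESeq2 also called 0 members at an FDR under 0.05, against 373 of all 11225 tested genes. It put 1 member higher and 1 lower at an unadjusted p under 0.05. In 0 members did the 6 WT and the 6 cmGch1 KO libraries not overlap, against 1.87% of all tested genes (1.07% higher and 0.802% lower).

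Most log2 fold changes were smaller than their SE, with those of Rpl3 and Rpl3l, given below, among the exceptions. The values of the 83 members ran from -0.27 for Rps14 to 0.33 for Rpl3, with a median of -0.06 and a median SE of 0.19. Over all tested genes the median was -0.01 and the median SE 0.109. After Rps14, the lowest values were those of the large subunit members Rpl36, with -0.20 (SE 0.197), and Rpl34, with -0.18 (SE 0.238). After Rpl3, the highest were those of Rps29, with 0.25 (SE 0.281), and Rpl39, with 0.16 (SE 0.277). Rps14 lay between 320 and 735 cpm in WT (median 482) and between 304 and 604 cpm in cmGch1 KO (median 399), and its groups overlapped, as did those of the other 4. Of the 83 members 19 lay above 0, against 46.7% of all tested genes and 137 of the 511 other genes with short transcripts. Large subunit members had a median of -0.05 and small subunit members of -0.08, and the 511 other genes with short transcripts had -0.07. Without cmGch1 KO replicates 2 and 3 the member median was -0.15, with 11 members above 0 and again 0 at an FDR under 0.05. The median of the other genes with short transcripts was then -0.12, and 34 of all 11098 genes tested were called. Scaling by library size alone, which moved the median of all genes to 0.07, put 51 members above 0. The member median was then 0.02, below that of all genes, as it was with the TMM factors.

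**Figure D3:**
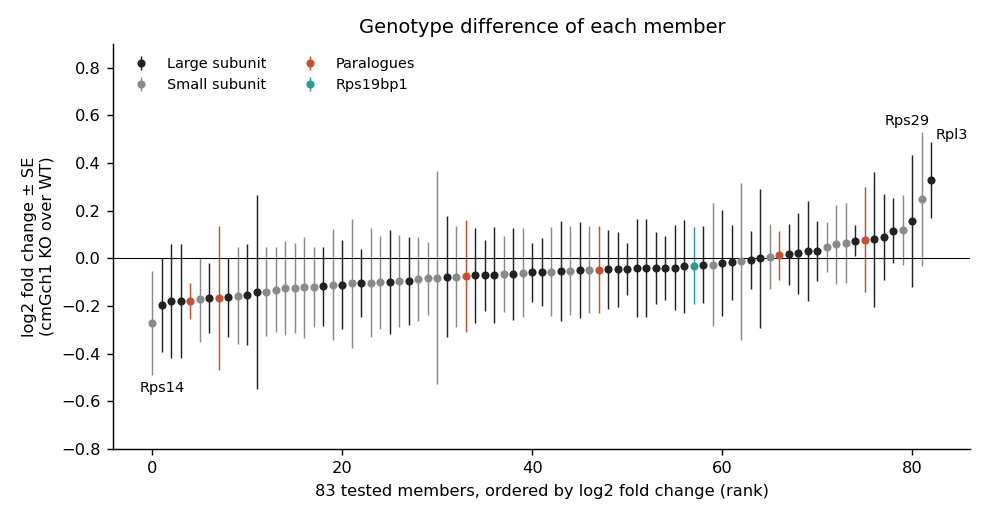
log2 fold change of cmGch1 KO over WT with its SE for the 83 tested members, ordered by value and coloured by class (large subunit, small subunit, paralogue, Rps19bp1). Values ran from -0.27 for Rps14 to 0.33 for Rpl3, and 19 points lie above 0.

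With the level of the 511 short-transcript genes as a covariate, an alternative chosen after the data were seen, the median SE of the members was 0.0634 and their median log2 fold change 0.01. Then 46 members lay above 0, 1 passed an FDR under 0.05, and 4 were higher and 2 lower at an unadjusted p under 0.05. Over all 11225 tested genes, 5357 lay above 0 in that fit and 488 passed an FDR under 0.05. At an unadjusted p under 0.05, 1122 of them were higher and 1111 lower. The called member was Rpl3. The others at an unadjusted p under 0.05 were Rps26, Rps27l and Rps9, higher, and Rpl3l and Rps14, lower.

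Rpl3 and Rpl3l encode the ubiquitous and the muscle form of the same large subunit protein. Rpl3 (chr15:80077791-80091868, minus strand) was at 163, 116, 149, 175, 121 and 107 cpm in WT replicates 1 to 6. In cmGch1 KO replicates 1 to 6 it was at 203, 236, 185, 146, 144 and 128 cpm. The 3 highest libraries were cmGch1 KO, 2 of them the libraries of high Xist, and the groups overlapped between 128 and 175 cpm. The WT mean was 138 ± 27.7 cpm and the cmGch1 KO mean 174 ± 41.3 cpm (SD). The log2 fold change was 0.33 (SE 0.160), with an unadjusted p = 0.0599 and an FDR of 0.465 by edgeR. With the short-transcript level as a covariate it was 0.39 (SE 0.0813, FDR 0.0172 by edgeR), and with 1 surrogate variable, a covariate estimated from all genes, 0.31 (FDR 0.0189 by edgeR). Without the libraries of high Xist it was 0.16 (unadjusted p = 0.341, FDR 0.981 by edgeR). The fits with these 2 covariates called 488 and 636 of all 11225 tested genes at an FDR under 0.05, against 126 without a covariate.

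Rpl3l (chr17:24727820-24736143, plus strand) was at 319, 276, 313, 315, 265 and 283 cpm in WT replicates 1 to 6. In cmGch1 KO replicates 1 to 6 it was at 272, 253, 245, 281, 228 and 284 cpm. The 3 highest libraries were WT and the 3 lowest were cmGch1 KO, and the groups overlapped between 265 and 284 cpm. The WT mean was 295 ± 23.3 cpm and the cmGch1 KO mean 261 ± 22.3 cpm (SD). The log2 fold change was -0.18 (SE 0.0743), with an unadjusted p = 0.0301 and an FDR of 0.345 by edgeR. It kept its sign in every alternative that was run, from -0.10 with scaling by library size alone to -0.21, and was -0.15 without the libraries of high Xist. Its r with the mean of the other members was 0.304, next to the lowest of the 83.

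The ratio of Rpl3l to Rpl3 within a library does not depend on the scaling. On the log2 scale it was 0.97, 1.25, 1.07, 0.85, 1.13 and 1.41 in WT replicates 1 to 6, and 0.42, 0.10, 0.40, 0.94, 0.66 and 1.15 in cmGch1 KO replicates 1 to 6. Of the 6 cmGch1 KO libraries, 4 lay below every WT library, and the groups overlapped. The mean was 1.11 ± 0.20 in WT and 0.61 ± 0.38 in cmGch1 KO, a difference of -0.50 by the log2 ratio (two-sided exact permutation test over 924 splits, p = 0.0216; 0.108 after Benjamini-Hochberg adjustment over 5 pairs of paralogues). Without the libraries of high Xist the difference was -0.32 (exact permutation p = 0.0857). The cpm of both genes per kilobase of principal transcript was 115 for Rpl3 and 202 for Rpl3l on average over the 12 libraries.

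**Figure D4:**
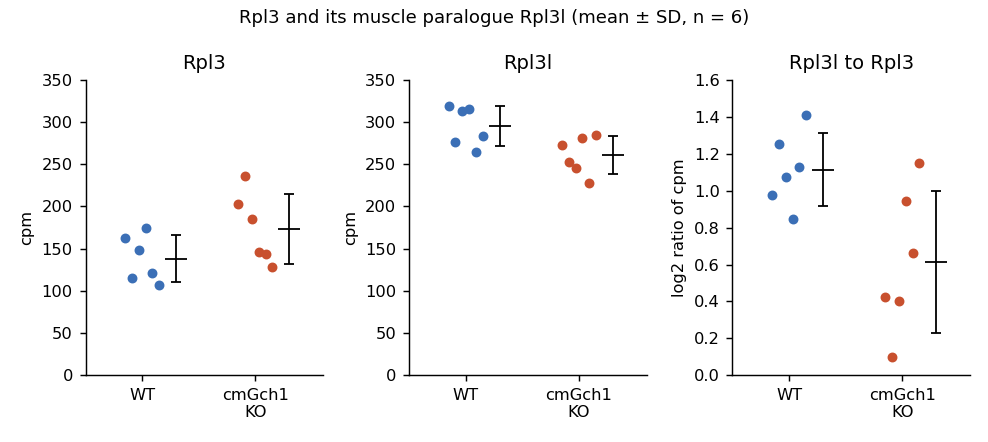
Level in cpm of Rpl3 and of Rpl3l, and the log2 ratio of Rpl3l to Rpl3, in the 6 WT (blue) and the 6 cmGch1 KO libraries (red), with the mean and SD at the side. Rpl3 lies between 107 and 236 cpm, Rpl3l between 228 and 319 cpm, and the groups overlap in all 3 panels.

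The other 4 paralogue pairs that could be compared showed no difference between genotypes beyond the spread of the libraries. The log2 ratio of the paralogue Rpl7l1 to Rpl7, which encodes a large subunit protein, was -2.35 ± 0.12 in WT and -2.30 ± 0.15 in cmGch1 KO (exact permutation p = 0.558). That of Rpl22l1 to Rpl22, an RNA-binding pair, was -2.84 ± 0.29 and -2.87 ± 0.33 (exact permutation p = 0.87). That of Rpl36al to Rpl36a was 0.51 ± 0.13 and 0.38 ± 0.25 (exact permutation p = 0.299), and that of Rps27l to Rps27, which share a zinc finger fold, -0.61 ± 0.46 and -0.46 ± 0.44 (exact permutation p = 0.578).

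P-stalk proteins carry the factors of elongation to the ribosome. Rplp0 lay between 551 and 964 cpm in WT (median 731) and between 557 and 1081 cpm in cmGch1 KO (median 657). Rplp1 lay between 276 and 419 cpm (median 320) and between 222 and 479 cpm (median 338). Rplp2, whose promoter window stands above, lay between 116 and 176 cpm (median 131) and between 77.8 and 163 cpm (median 135). Their log2 fold changes were -0.03, 0.02 and -0.12, and none passed the test.

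Rps6 lay between 238 and 383 cpm in WT (median 286) and between 225 and 365 cpm in cmGch1 KO (median 273), a log2 fold change of -0.08 (SE 0.152). Rpl5 and Rpl11, which bind Mdm2 and thereby stabilise p53 when ribosome assembly fails, had log2 fold changes of -0.03 and -0.05. Rpl23, which also binds Mdm2, had 0.02. Rpsa, the laminin receptor precursor, had 0.06, Rps19 had -0.12, Rpl10a had -0.04 and Rpl13a had -0.04, and none of these passed the test. Rpl38, a small protein whose levels spanned 12.3 to 47.5 cpm over all libraries, had 0.08 (SE 0.283).

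The 4 X-linked members, Rpl10, Rpl36a, Rpl39 and Rps4x, all had log2 fold changes above 0, with a median of 0.07, and none passed the test. The 2 libraries of high Xist are both cmGch1 KO, and without them the median was -0.01 with 1 of 4 above 0. Rps4x lay between 276 and 394 cpm in WT (median 316) and between 296 and 392 cpm in cmGch1 KO (median 339). Rps27a encodes a ubiquitin fusion and had the widest SE of all, 0.449, with levels from 34.2 to 152 cpm in WT and from 31.7 to 133 cpm in cmGch1 KO.

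Levels per kilobase of principal transcript, on the cpm scale and averaged over the 12 libraries, differed widely between members. The highest were Rps2 with 802, Rplp1 with 680, Rps14 with 591 and Rps15 with 561 cpm per kilobase. The lowest of the tested members were Rps19bp1 with 10.2, Rpl21 with 16.4, Rps15a with 21.3 and Rps20 with 21.4. These values divide by the longest principal transcript. With the shortest, Rps15a (640 in place of 5179 bases) was at 173 cpm per kilobase and no longer among the 4 lowest, Rpl21 was at 33.9, and Rps19bp1 and Rps20 had the same values. For Rps20 both lengths are 3706 bases, beside a coding sequence of 357 bases, so its low value rests on that annotated length. With the merged exons of each gene (exon union) as length, 6 of the 10 highest members were the same.

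Near-identical copies can divide the reads of these genes, or remove them from the counts where reads that map to several places are not counted. Whether such reads were counted is not given in the sources used here, and adding the counts of copies cannot restore uncounted reads. Of 589 annotated copies (at least 95% identity over at least 50% of the coding sequence) 575 were pseudogenes, and 357 were in the counts table. Longer genes that hold a copy inside, 9 in all, were left out because their counts include reads of their own, a choice made after the counts were seen. Copies held 8.05% of the counts of members and copies together. Of the 83 tested members 24 had at least 10% of their joint counts at copies and 3 at least 50%. These were Rpl21 with 77.9%, Rpl17 with 75.2% and Rps12 with 52.3%. Rps12-ps3, annotated as coding, has the same coding sequence as Rps12 over its whole length and held 71.2 cpm on average against 67.1 cpm at Rps12. Rpl17-ps10 held 85.7 cpm on average against 43.3 cpm at Rpl17. The values of these members are therefore uncertain, and so is Rpl24, which lay at 0.607 ± 0.235 cpm (SD) in the WT libraries and 0.568 ± 0.244 cpm in the cmGch1 KO libraries with 89.4% of its joint counts at 2 copies. Rps27 and Rps27rt have identical coding sequences and cannot be told apart within them.

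Rpl17 lay between 35.1 and 58.2 cpm in WT (median 41.9). In cmGch1 KO replicate 1 it was at 121 cpm and in the other 5 between 17.0 and 39.8 cpm. Its log2 fold change was -0.14 (SE 0.408, FDR 0.953 by edgeR), and without cmGch1 KO replicate 1 it was -0.85 (FDR 0.0484 by edgeR). That fit, which left out the library of its highest value, called 207 of all 11174 genes at an FDR under 0.05. With the reads of its copies added, the r of Rpl17 with the other members went from 0.667 to 0.959. For Rpl21 it went from 0.390 to 0.864. Other members of low r did not follow their copies in this way, among them Rps27a, with 0.443 and 0.451, Rps29, with 0.469 and 0.450, and Rpl7a, with 0.623 and 0.489. With the counts of copies added, 0 members were higher and 0 lower at an FDR under 0.05, against 126 called of all 11155 genes in that fit.

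**Figure D5:**
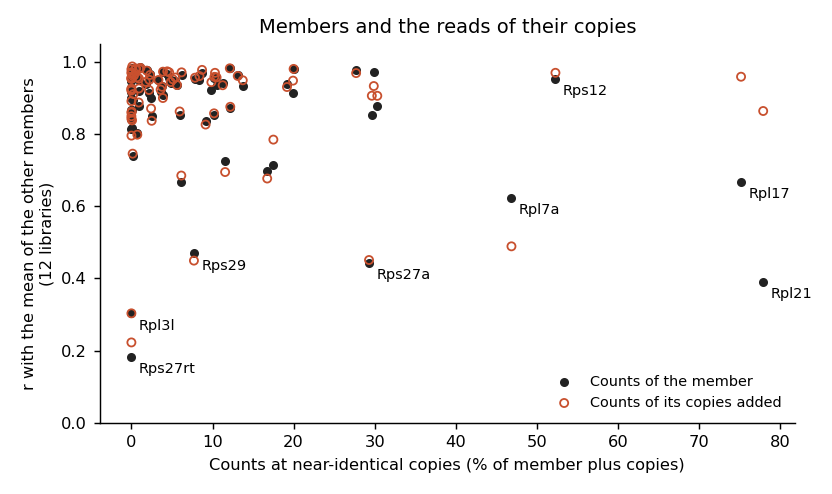
Pearson r of each tested member with the mean of the other members over 12 libraries, against the share of its joint counts (in %) that lay at near-identical copies, before (filled) and after (open circles) adding the counts of the copies. Most members have an r over 0.9 and few counts at copies, whereas Rpl21 and Rpl17, with 77.9% and 75.2%, rise to 0.864 and 0.959 when the copies are added.

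Exons of 11 members overlapped another counted gene on the same strand and those of 15 on the opposite strand. Small nucleolar RNAs, which guide the modification of ribosomal RNA, lay within 30 of the 83 tested members or 36.1%, 58 in all, against 1.53% of the 10683 other tested protein-coding genes. The counting of overlapping genes depends on the strand setting, so the values of these members are uncertain to that extent.

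Ribosome genes outside the symbol rule behaved likewise. Fau, which encodes a ubiquitin-like fusion with a small subunit protein, lay between 82.995 and 146 cpm in WT and between 63.1 and 158 cpm in cmGch1 KO, a log2 fold change of -0.12. Rack1, a scaffold on the small subunit, had a log2 fold change of -0.07, and neither passed the test.

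Genes that make ribosomes and that control them were described as lists beside the members. Of 47 tested genes of ribosome biogenesis and RNA polymerase I, 0 were called at an FDR under 0.05, 5 were higher and 0 lower at an unadjusted p under 0.05, and 38 had a log2 fold change above 0, with a median of 0.07. Over all tested genes these shares were 7.01% higher and 4.51% lower at an unadjusted p under 0.05, and 46.7% above 0. The 5 were Polr1e, a subunit of RNA polymerase I, with 0.43 (FDR 0.125 by edgeR), Rrp12 with 0.37, Bysl with 0.28, Nop16 with 0.32 and Nop58, a core protein of small nucleolar ribonucleoproteins, with 0.16. Without the libraries of high Xist the counts were 31 above 0 and 1 higher at an unadjusted p under 0.05, where 5405 of all 11098 genes tested in that fit were above 0 and 466 higher. Of 41 translation factors, 0 were called, 24 were above 0 and 1, Eif2s3x, was higher at an unadjusted p under 0.05 (0.45, FDR 0.318 by edgeR). Eif2s3x, X-linked, was at 220 and 214 cpm in the libraries of high Xist and at 121 to 131 cpm in the other cmGch1 KO libraries.

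Of 20 tested regulators of TOP mRNAs and of mTOR, 1, Myc, was called at an FDR under 0.05. Myc, a transcription factor that raises the transcription of ribosome genes in growing cells, ranged over 2.10 to 3.49 cpm in WT and over 3.58 to 7.28 cpm in cmGch1 KO, and the groups did not overlap. It was over 3 cpm in 6 of 6 cmGch1 KO but only 2 of 6 WT libraries, so it passed the filter through the group in which it was high, and it was not tested where every library had to pass. Its log2 fold change was 0.90 (SE 0.193, FDR 0.0399 by edgeR), and without the libraries of high Xist it was 1.03 (FDR 0.0613 by edgeR). The call was lost in 8 of 12 fits that left out 1 library (WT replicates 2, 3, 5 and 6 and cmGch1 KO replicates 1, 3, 5 and 6), with FDR values of 0.0532 to 0.106 by edgeR. In the same list Tsc1, an inhibitor of mTORC1, was at -0.27 and Eef2k, the kinase that slows elongation, at -0.21, with unadjusted p = 0.0154 and 0.0248 by edgeR and neither past an FDR of 0.05.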

How the data were processed

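RNA sequencing of the left ventricle was analysed for 12 mice, 6 WT and 6 cmGch1 KO, grouped by the genotype in the labels. Per the paper's methods, the authors made stranded paired-end libraries with dUTP and used HISAT2, Picard and featureCounts. The submitters' processing notes name HISAT2, SAMtools and GRCm38. The annotation, the strand setting and the setting for reads that map to several places are not given in the sources used here. The authors deposited raw counts per gene and a table of log2 values normalised by a tool not given in the sources used here, which was used only as an alternative.

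Symbols and coordinates came from GENCODE M21 on GRCm38, in which 26582 of 26921 identifiers were found. Genes were kept when at least 6 libraries exceeded 3 cpm, and were tested in R 4.3.3 with edgeR 4.0.16 (TMM, quasi-likelihood, Benjamini-Hochberg, FDR under 0.05), without covariates. Alternatives used DESeq2 1.42.0, limma 3.58.1 and sva 3.50.0, and copies were found with BLAST 2.17.0. Levels are TMM-scaled cpm; log2 cpm used a prior count of 2. In simulated data for this comparison, with 11225 genes, 44 of 91 changes of 0.5 and 105 of 109 of 1.0 on the log2 scale were recovered, with 7 false calls. The changed genes were drawn from all tested genes, and each gene was simulated on its own. Members had a wider median SE (0.19 against 0.109 over all tested genes) and moved together, so these shares do not give the recovery for members.

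Members and lists were chosen with earlier results of these data known. Genes named in the text were Gch1, members past the thresholds, the 3 largest rises and falls, the 4 highest and lowest levels per length, members of role lists, and, of each other list, genes past the FDR or else the 3 of smallest p. Rpl4, Rpl17, Rps12, Rpl24, Nppa, Acta2 and members of low r were added after their values were seen. Each library is 1 animal, and p-values measure the spread between these animals. Some results for single genes are not reported here.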

Additional observations from a re-analysis of the deposited data

Results flagged for a closer look

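In 118 groups of 6 libraries, 3 held a library whose distance to the nearest other exceeded the 95% limit of Dixon's test, as a share of the range; chance gives about 1 in 20 groups. Rpl17 was at 121 cpm in cmGch1 KO replicate 1, against 17.0 to 39.8 cpm in the other 5. Eif3b, a translation initiation factor, was at 111 cpm in the same library, against 138 to 144 cpm in the others. The ratio of large to small subunit cpm was 1.25 in cmGch1 KO replicate 5, against 1.16 to 1.20 in the other 5.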

How the results depend on the processing

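Among members, 0 were called higher or lower at an FDR under 0.05 by most settings. The exceptions were 1 surrogate variable and the short-transcript covariate (1 higher each, Rpl3). Leave-one-out gave 0 to 0 higher and 0 to 1 lower. Over all genes, 636 were called with 1 surrogate variable, 488 with the short-transcript covariate, 373 with DESeq2 and 34 without the libraries of high Xist. The main fit called 126. At an unadjusted p under 0.05 the members higher were 1 with library size alone, DESeq2, the replicate block and 1 surrogate variable. With the short-transcript covariate they were 4, and leave-one-out gave 0 to 1. The members lower were 0 with library size alone, the sex-linked covariate and without the libraries of high Xist. They were 6 with 1 surrogate variable and 2 with the short-transcript covariate, and leave-one-out gave 0 to 2. Over all genes, 1122 were higher and 1111 lower at that p with the short-transcript covariate, against 787 and 506 in the main fit. Members above 0 numbered 51 with library size alone, which moved all genes up (median 0.07, members 0.02), 12 with the sex-linked covariate, 9 with the mitochondrial share, 46 with the short-transcript covariate and 11 without the libraries of high Xist; leave-one-out gave 6 (without cmGch1 KO replicate 1) to 59 (without WT replicate 4), and a median of -0.17 to 0.03. The Rpl3l to Rpl3 log2 ratio difference was -0.32 (exact permutation p = 0.0857) without the libraries of high Xist, and -0.61 to -0.40 under leave-one-out. By exon union length, 6 of the 10 highest members per length stayed. The replicate block called 188 genes against 126. Deviations from the group means correlated between -0.13 and 0.68 across same-numbered libraries. WT replicates 1, 5 and 6 correlated best with the cmGch1 KO library of the same number (0.68, 0.40 and 0.51), and WT replicates 2, 3 and 4 with another. Whether the numbers pair the animals cannot be told from these values. For 39 examined members, 151 of 1053 alternative log2 fold changes had another sign and 9 members never did. Myc lay between 0.47 and 1.03 and lost its call in 8 of 12 leave-one-out fits. The short-transcript covariate, the shortest-transcript length, the ratio alternatives and those for genes that are no member were chosen after seeing the data; the causes of these shifts were not tested. The median SE of a member was 0.19, and 0.0634 with the short-transcript covariate at the same depth.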
